A study of Homo sapiens with 6 samples.

Results

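The 40 genes described here encode the enzymes and transporters that carry glucose to lactate, and well known parts of the response to low oxygen. They were chosen by name, and each was found once among the 51698 entries of the deposited tables. Their RNA was measured in 6 prostate cancer cell lines of human origin, each with 1 library. LnCaP, VCaP and LAPC4 are castration sensitive per the labels. The castration-resistant lines are LnCaP-abl, VCaP-CR and LAPC4-CR, each named after one of the sensitive lines, here called its parent. LnCaP and LAPC4 were kept in RPMI and VCaP in DMEM, with 10% fetal bovine serum. The resistant lines were all kept in RPMI with 10% charcoal-stripped serum, from which steroids are removed, plus B27. No line received any other treatment. State and medium thus differed together in every pair and cannot be told apart.

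Glycolysis turns glucose into pyruvate in the cytosol, lactate dehydrogenase turns pyruvate into lactate, and pyruvate dehydrogenase kinases keep pyruvate from being burned in the mitochondrion. When oxygen is low, the proteins HIF1A and EPAS1 escape degradation, pair with ARNT and switch on many of these enzymes along with genes for acid-base control, vessel growth and mitophagy. Both are regulated mainly as proteins, so their RNA level is no measure of their activity.

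None of the genes passed the test for a change across all pairs. LnCaP-abl held very little LDHB, a subunit of lactate dehydrogenase, and less HK2 and PFKP than LnCaP. VCaP-CR held more HK2, PDK1 and ALDOC than VCaP. LAPC4-CR held less of 30 of the 37 tested genes than LAPC4, where 51.7% of all tested genes were lower, and less of the 3 genes below the test's level. Among these 33 were the lactate exporter SLC16A3 and the hypoxia genes ADM and CA9. SLC16A3 and ADM were tested only because of their level in LAPC4. CA12 was higher in LnCaP-abl and LAPC4-CR than in their parents, and high in both VCaP lines.

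Levels are scaled FPKM, the deposited fragments per kilobase of gene and per 1e6 counts, divided by 1 factor per library, so that they compare between genes and between libraries. Values are given in the order parent, then resistant line. A change is the resistant minus the parental log2(scaled FPKM + 1), and a change of 1 or more in size is called 2-fold. Fold values are plain ratios of scaled FPKM. A change within a pair rests on 1 library per line and has no replicate check. Library totals lay between 8661337 and 22433655 counts, and in each pair the resistant library was deeper. A gene was tested when its mean over the libraries reached 1 scaled FPKM, which 16231 genes did. Of the 40 genes 37 were tested, while SLC2A3, PDK4 and CA9 fell short. SLC16A3 and ADM passed only through LAPC4, with means of 0.875 and 0.845 over the other libraries, so a difference in the LAPC4 pair was built into their selection. In bulk RNA, fewer cells with a transcript and less transcript per cell cannot be told apart.

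The labelled cell type was checked on 8 luminal prostate markers, which all reached 1 scaled FPKM except KLK3 at 0.649 in LnCaP-abl and TMPRSS2 at 0.638 in LAPC4-CR. The VCaP lines had ERG levels of 16.9 and 5.46, while no other line exceeded 0.186. The 5 mesenchymal markers summed to 1.59 to 2.78, and PTPRC of leukocytes and CDH5 of endothelium reached at most 0.343 and 0.397. The 4 proliferation markers MKI67, TOP2A, PCNA and CCNB1 summed to 226 and 153 in the LnCaP lines, 454 and 359.8 in the VCaP lines, and 219 and 297 in the LAPC4 lines. The 4 did not all differ the same way as their sum: MKI67 was at 9.96 and 4.71, 8.55 and 13.6, and 4.01 and 23.2 in these lines, and TOP2A was also higher in VCaP-CR (119 and 145). Small RNA genes, which were left out, took a smaller share of the counts in every resistant library (22.1% and 14.9%, 27.0% and 21.5%, 23.4% and 13.0%), and protein-coding genes a larger one (67.8% and 77.4%, 62.8% and 67.98%, 68.3% and 79.5%). The part of markers and of library composition in the differences described here was not tested.

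**Figure D1:**
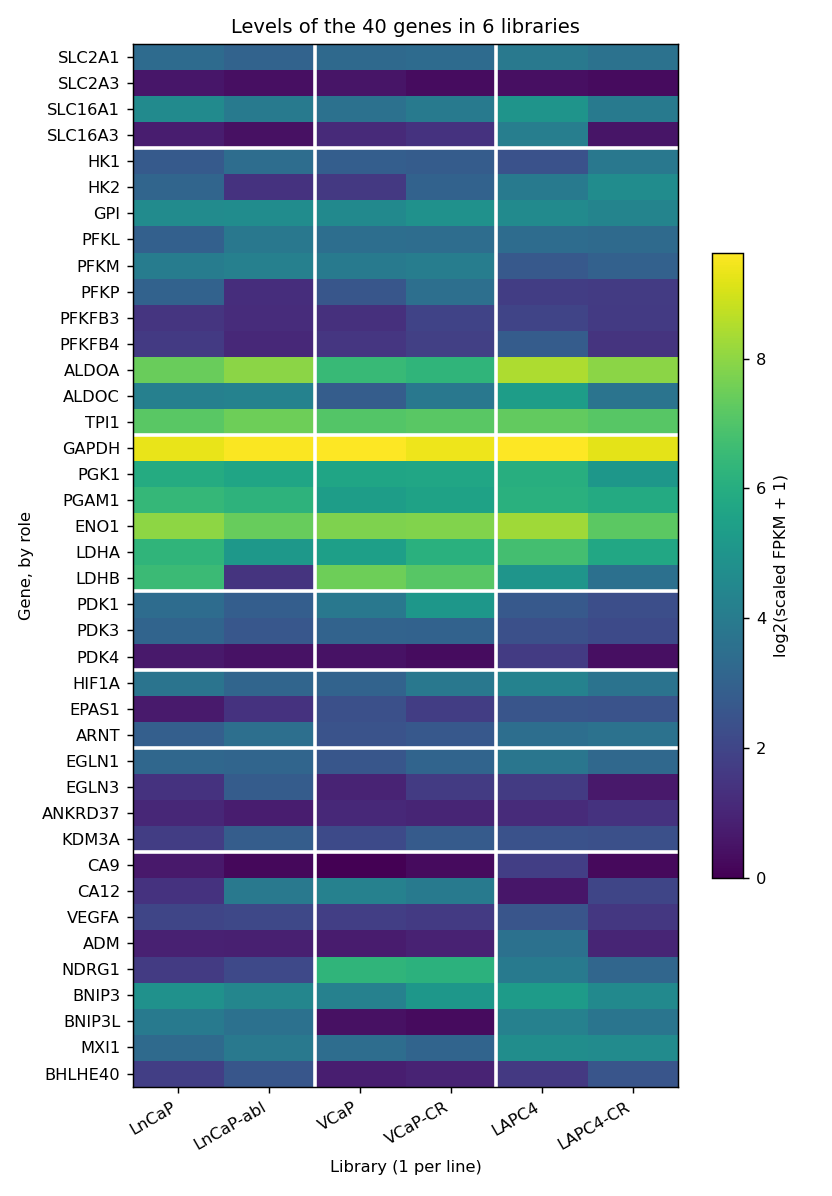
Heat map of log2(scaled FPKM + 1) for the 40 genes (rows, by role) in the 6 libraries (columns, 1 per line). GAPDH was the most abundant gene in each library, LDHB was at its lowest in LnCaP-abl, and BNIP3L was low in both VCaP lines.

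The pairs were first compared together, which asks whether the resistant lines share a difference from their parents. In edgeR's quasi-likelihood test, blocked on the parental line, 0 of the 37 genes passed an adjusted p of 5% in either direction, and so did 0 of all genes tested (0%). At an unadjusted p under 0.05, 2 of the 37 were higher, against 4.49% of all genes, and 0 were lower, against 3.38% (7.86% in either direction). The 2 were CA12, a carbonic anhydrase of the cell surface, with a log2 change of 1.86 (SE 0.70, edgeR adjusted p 0.603), and BHLHE40, a transcriptional repressor induced by hypoxia, with 0.88 (SE 0.34, edgeR adjusted p 0.609). LDHB had -2.26 (SE 1.05, edgeR adjusted p 0.651). Its log2 change was -0.94 without the LnCaP pair and -3.58 without the VCaP pair. The smallest adjusted p among the 37 was 0.105 in DESeq2 (CA12) and 0.600 in limma (LDHB), so both called 0 of them. Over all genes DESeq2 called 83 higher and 55 lower and limma 0. Without the VCaP pair edgeR called CA12 higher, with an adjusted p of 0.0483, in a range of 0.0483 to 0.99999 over the alternatives.

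Few genes of the set kept their direction. PFKM, ARNT and BHLHE40 were higher in the resistant line of every pair (3 of 37, against 15.1% of all genes tested). LDHB, PDK3 and BNIP3L were lower in every pair (3 of 37, against 16.7%), although PDK3 was higher in VCaP-CR on FPKM as deposited. BNIP3L had only 14 counts in VCaP (95% Poisson interval 7.65 to 23.5) and 16 in VCaP-CR (9.15 to 26.0). Its direction in that pair is uncertain. None of the 37 was 2-fold higher or 2-fold lower in all 3 pairs, as were 0.0616% and 0.0986% of all genes. In at least 1 pair 15 of the 37 were 2-fold different, against 23.3% of all genes, and 3 were 2-fold different in opposite directions in 2 pairs, against 1.27%.

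In LnCaP-abl 3 of the 37 genes were 2-fold higher (CA12, EGLN3 and KDM3A, against 6.23% of all genes) and 4 were 2-fold lower (HK2, PFKP, LDHA and LDHB, against 6.19%). By any amount 17 were higher, against 49.1%, and 20 lower, against 50.9%. VCaP-CR had 3 genes 2-fold higher (HK2, ALDOC and PDK1, against 2.37%) and 0 lower (against 2.03%), with 24 higher (against 48.5%) and 13 lower (against 51.4%) by any amount. LAPC4-CR had 2 genes 2-fold higher (HK1 and CA12, against 5.22%) and 8 lower (against 5.28%), with 7 higher (against 48.3%) and 30 lower (against 51.7%) by any amount. The 8 were SLC16A1, SLC16A3, PFKFB4, ALDOC, ENO1, LDHB, EGLN3 and ADM, and they numbered 5 on FPKM as deposited. Both the 8 and the 30 include SLC16A3 and ADM, which were tested only through their level in LAPC4. A lower level of these genes in LAPC4-CR was thus built into the selection. In VCaP-CR the genes 2-fold higher numbered 5 with a pseudocount of 0.25 and 1 with a pseudocount of 5. Median changes of the 37 were -0.06, 0.17 and -0.39 for LnCaP-abl, VCaP-CR and LAPC4-CR, against -0.01, -0.01 and -0.02 over all genes. All 37 are protein-coding, and over the 11341 protein-coding genes tested the medians were 0.08, -0.01 and 0.02. Of those genes, 7.27%, 2.12% and 6.15% were 2-fold higher and 4.04%, 1.95% and 4.72% 2-fold lower. By any amount, 6301 of them were higher and 5040 lower in LnCaP-abl.

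**Figure D2:**
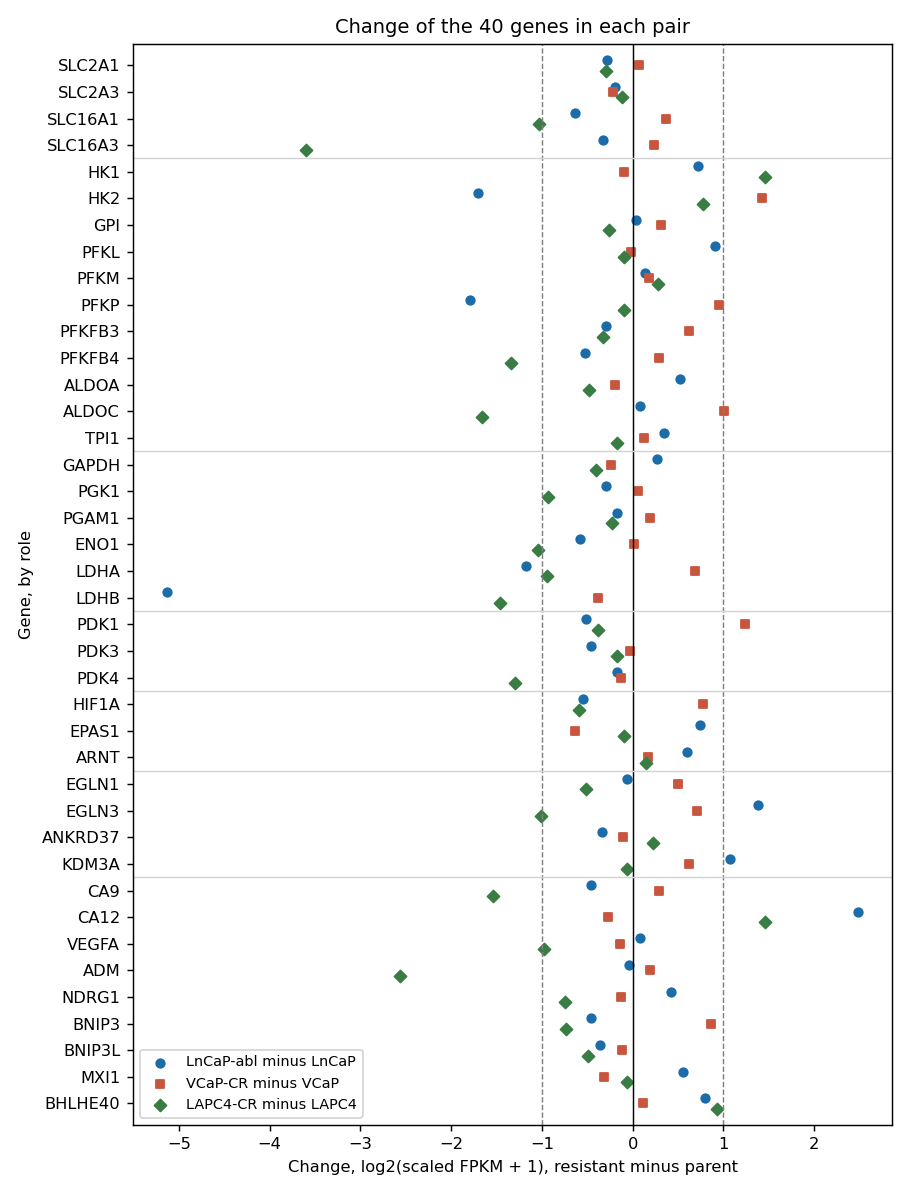
Change of each of the 40 genes, resistant minus parental log2(scaled FPKM + 1), with 1 symbol per pair and dashed lines at a 2-fold change. The LAPC4 symbols lie left of 0 for 33 genes, and the symbol farthest from 0 is that of LDHB in the LnCaP pair.

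Transporters move glucose in and lactate out. SLC2A1, the main glucose transporter of proliferating cells, was at 9.24 and 7.42 scaled FPKM in the LnCaP lines, 8.75 and 9.21 in the VCaP lines, and 13.98 and 11.2 in the LAPC4 lines. It was 2-fold different in no pair, and LAPC4 was highest. SLC2A3, a glucose transporter of high affinity, stayed at or below 0.491 in every library. SLC16A1, which carries lactate in either direction, was at 23.5 and 14.8 scaled FPKM in the LnCaP lines, 11.1 and 14.5 in the VCaP lines, and 30.3 and 14.3 in the LAPC4 lines. It was 2.12-fold lower in LAPC4-CR and moderately lower in LnCaP-abl.

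SLC16A3 (ENSG00000141526, chromosome 17, 77779582 to 77790658 in hg18, the build named in the submitters' processing notes), the lactate exporter of strongly glycolytic cells, was at 0.704 and 0.355 scaled FPKM in the LnCaP lines, 1.24 and 1.63 in the VCaP lines, and 16.5 and 0.450 in the LAPC4 lines. LAPC4 alone held an appreciable level, and LAPC4-CR was 36.8-fold lower, within the range of the other lines. The counts were 458 in LAPC4 and 24 in LAPC4-CR (95% Poisson interval 15.4 to 35.7). Of the RNA of both lactate transporters, SLC16A3 made up 35.3% in LAPC4 and 3.05% in LAPC4-CR. Of their counts, which are not divided by gene length, it made up 15.4% and 1.04%.

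Hexokinase traps glucose in the cell, and its 2 forms behaved differently. HK2 (ENSG00000159399, chromosome 2, 74914616 to 74973994), the form typical of tumours, was at 7.78 and 1.69 scaled FPKM in the LnCaP lines, 2.04 and 7.19 in the VCaP lines, and 14.1 and 24.8 in the LAPC4 lines. It was 4.61-fold lower in LnCaP-abl, 3.52-fold higher in VCaP-CR and highest of all in LAPC4-CR. HK1, the form of most tissues, was at 5.66 and 9.93 scaled FPKM in the LnCaP lines, 6.42 and 5.92 in the VCaP lines, and 4.32 and 13.7 in the LAPC4 lines. HK1 was higher in LnCaP-abl and LAPC4-CR and near its parent in VCaP-CR. HK2 therefore made up 57.9% of the 2 in LnCaP and 14.5% in LnCaP-abl (14.3% of their counts, 95% Wilson interval 12.1% to 16.8%), against 24.1% in VCaP and 54.8% in VCaP-CR (54.4% of their counts, 95% Wilson interval 51.7% to 57.1%).

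Phosphofructokinase, the main control step, is made of the subunits PFKL, PFKM and PFKP. PFKP, the platelet form, was at 7.18 and 1.37 scaled FPKM in the LnCaP lines, 4.91 and 10.4 in the VCaP lines, and 2.40 and 2.19 in the LAPC4 lines. It was 5.24-fold lower in LnCaP-abl and 2.13-fold higher in VCaP-CR, where its change of 0.95 lay just under the 2-fold limit. PFKL, the liver form, was at 6.85 and 13.7 scaled FPKM in the LnCaP lines, 10.1 and 9.96 in the VCaP lines, and 9.69 and 8.97 in the LAPC4 lines, with LnCaP-abl highest. PFKM, the muscle form, was at 15.6 and 17.2 scaled FPKM in the LnCaP lines, 14.2 and 16.1 in the VCaP lines, and 5.53 and 6.92 in the LAPC4 lines, lower in both LAPC4 lines than in the rest. PFKFB4, which makes the sugar that activates phosphofructokinase, was at 2.09 and 1.15 scaled FPKM in the LnCaP lines, 1.86 and 2.50 in the VCaP lines, and 5.89 and 1.73 in the LAPC4 lines, highest in LAPC4. Its relative PFKFB3 lay between 1.31 in LnCaP-abl and 2.94 in LAPC4.

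Aldolase cuts the sugar in the middle. ALDOA, the main form, was at 173 and 249 scaled FPKM in the LnCaP lines, 89.7 and 78.4 in the VCaP lines, and 347 and 249 in the LAPC4 lines, lowest in both VCaP lines. ALDOC, the brain form, was at 17.2 and 18.2 scaled FPKM in the LnCaP lines, 6.11 and 13.3 in the VCaP lines, and 39.97 and 11.9 in the LAPC4 lines. VCaP-CR was 2.18-fold higher and LAPC4-CR 3.35-fold lower than the parent, and the change of 1.01 in the VCaP pair is at the 2-fold limit. GPI, which isomerises the first sugar phosphate, and TPI1, which isomerises the cut product, were 2-fold different in no pair, at 19.2 to 28.2 and 133 to 181.

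GAPDH was the most abundant RNA of the set in every library. This enzyme, which oxidises the cut sugar, was at 633 and 762 scaled FPKM in the LnCaP lines, 783 and 665 in the VCaP lines, and 793 and 601 in the LAPC4 lines. LAPC4 and LAPC4-CR mark the highest and lowest of the 6 levels. GAPDH, ENO1, ALDOA and TPI1 together held 63.6% (VCaP-CR) to 77.5% (LnCaP-abl) of the summed scaled FPKM of the 40 genes. That sum was 1754 and 1757 in the LnCaP lines, 1805 and 1747 in the VCaP lines, and 2223 and 1540 in the LAPC4 lines, so LAPC4 was highest and LAPC4-CR lowest. ENO1, the main enolase, was at 253 and 168 scaled FPKM in the LnCaP lines, 219.6 and 222 in the VCaP lines, and 304 and 147 in the LAPC4 lines. It was near its parent in VCaP-CR and 2.06-fold lower in LAPC4-CR, with a change of -1.04. PGK1, which makes the first ATP of the pathway, was at 60.6 and 49.05 scaled FPKM in the LnCaP lines, 49.6 and 51.5 in the VCaP lines, and 64.6 and 33.5 in the LAPC4 lines, lowest in LAPC4-CR. PGAM1, a mutase, ranged from 39.6 in VCaP to 83.6 in LnCaP and was 2-fold different in no pair.

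Lactate dehydrogenase is built from LDHA, whose enzyme favours making lactate, and LDHB, whose enzyme favours using it. LDHB (ENSG00000111716, chromosome 12, 21679543 to 21802058) was at 94.5 and 1.73 scaled FPKM in the LnCaP lines, 181 and 139 in the VCaP lines, and 31.6 and 10.8 in the LAPC4 lines. LnCaP-abl was below all other lines and 54.6-fold lower than LnCaP, on 61 counts (95% Poisson interval 46.7 to 78.4) against 2610. LAPC4-CR was 2.92-fold lower than LAPC4, and the VCaP lines held the most. LDHA (ENSG00000134333, chromosome 11, 18372511 to 18386548) was at 78.7 and 34.3 scaled FPKM in the LnCaP lines, 42.2 and 68.7 in the VCaP lines, and 106 and 54.3 in the LAPC4 lines. It was 2.30-fold lower in LnCaP-abl and 1.95-fold lower in LAPC4-CR, while VCaP-CR was higher than VCaP. Of both subunits, LDHB made up 54.5% in LnCaP and 4.80% in LnCaP-abl (2.36% of their counts, 95% Wilson interval 1.85% to 3.03%), 81.1% and 66.8% in the VCaP lines, and 23.1% and 16.6% in the LAPC4 lines. Of the counts, LDHB made up 36.6% in LnCaP, 67.3% and 49.2% in the VCaP lines, and 12.6% and 8.75% in the LAPC4 lines. Which subunit was the larger in LnCaP and VCaP-CR thus depended on whether gene length was allowed for. On both measures the share was lower in the resistant line each time, by very unequal amounts.

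**Figure D3:**
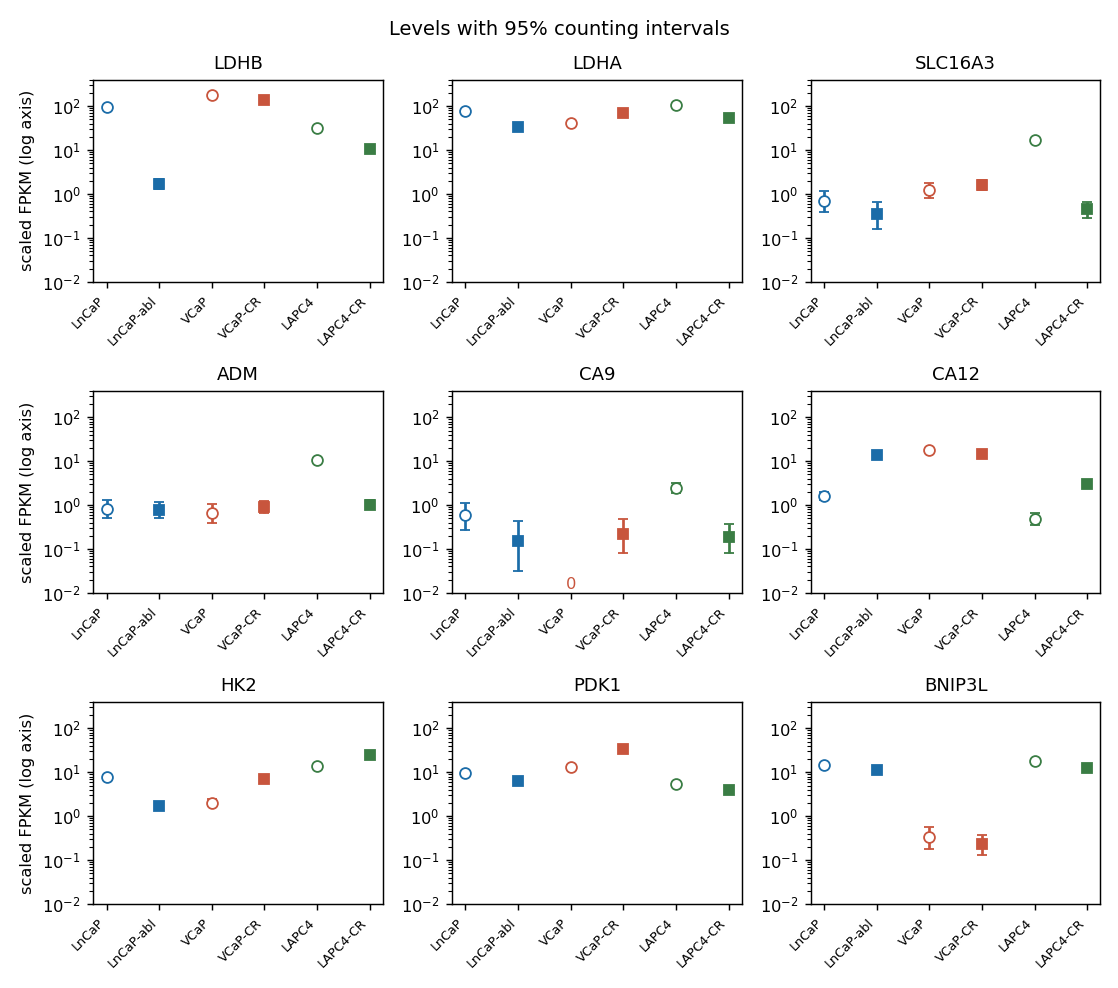
Scaled FPKM (log axis) of 9 genes in the 6 libraries, with exact 95% Poisson intervals of the counts as bars; open circles are parental and filled squares resistant lines, and 0 marks a library with no count. LDHB in LnCaP-abl and SLC16A3, ADM and CA9 in LAPC4-CR lie below the bars of their parents.

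Pyruvate dehydrogenase kinases close the entry to the mitochondrion. PDK1 (ENSG00000152256, chromosome 2, 173128347 to 173198069), a classical HIF1A target, was at 9.65 and 6.43 scaled FPKM in the LnCaP lines, 13.5 and 33.4 in the VCaP lines, and 5.49 and 3.96 in the LAPC4 lines. Both VCaP lines were above all others, and VCaP-CR was 2.46-fold higher than VCaP. PDK4, a kinase induced by fasting, was at 0.570 and 0.391 scaled FPKM in the LnCaP lines, 0.382 and 0.261 in the VCaP lines, and 2.23 and 0.319 in the LAPC4 lines, so LAPC4 alone was above 1. PDK3 ranged from 3.52 in LAPC4-CR to 7.49 in LnCaP.

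Of the 3 subunits of the hypoxia-inducible factors, none reached a change of 1 on the log2(scaled FPKM + 1) scale in any pair. HIF1A was at 12.01 and 7.88 scaled FPKM in the LnCaP lines, 7.43 and 13.4 in the VCaP lines, and 18.1 and 11.7 in the LAPC4 lines. It was higher in VCaP-CR than in its parent, and LnCaP-abl and LAPC4-CR were lower than theirs, each by less than 2-fold on the log2(scaled FPKM + 1) scale. EPAS1, also called HIF-2-alpha, was at 0.607 and 1.69 scaled FPKM in the LnCaP lines, 4.16 and 2.32 in the VCaP lines, and 4.83 and 4.45 in the LAPC4 lines, lowest in LnCaP. As a plain ratio it was 2.79-fold higher in LnCaP-abl. It made up 4.81% of the 2 transcripts in LnCaP and 17.7% in LnCaP-abl, and 35.9% in VCaP and 14.7% in VCaP-CR. ARNT, the shared partner, ranged from 4.54 in VCaP to 11.5 in LAPC4-CR.

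EGLN1 and EGLN3 are oxygen-dependent hydroxylases that mark the factors for degradation. EGLN3, itself a target of hypoxia, was at 1.69 and 5.998 scaled FPKM in the LnCaP lines, 0.958 and 2.20 in the VCaP lines, and 2.19 and 0.579 in the LAPC4 lines. It was 3.55-fold higher in LnCaP-abl, 2.30-fold higher in VCaP-CR and 3.78-fold lower in LAPC4-CR, and it overlaps SPTSSA, an entry with many more counts. EGLN1 was less variable, from 5.04 in VCaP to 12.8 in LAPC4. KDM3A, a histone demethylase, was at 2.37 and 6.10 scaled FPKM in the LnCaP lines, 3.46 and 5.88 in the VCaP lines, and 4.32 and 4.09 in the LAPC4 lines, with both LnCaP-abl and VCaP-CR above their parents. ANKRD37, a small HIF target, stayed between 0.688 and 1.67.

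Products that are secreted or sit at the cell surface include ADM, VEGFA and the carbonic anhydrases. ADM (ENSG00000148926, chromosome 11, 10282803 to 10285520), the vasodilator peptide adrenomedullin, was at 0.834 and 0.778 scaled FPKM in the LnCaP lines, 0.677 and 0.917 in the VCaP lines, and 10.9 and 1.02 in the LAPC4 lines. LAPC4 alone was far above 1, and LAPC4-CR was 10.7-fold lower, on 69 counts against 383. VEGFA, the vascular growth factor, was at 3.07 and 3.29 scaled FPKM in the LnCaP lines, 2.44 and 2.13 in the VCaP lines, and 4.84 and 1.97 in the LAPC4 lines, highest in LAPC4 and lowest in LAPC4-CR.

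CA9 and CA12 are carbonic anhydrases of the cell surface that help export acid. CA9 (ENSG00000107159, chromosome 9, 35663853 to 35671156), a common marker of hypoxia, was at 0.582 and 0.152 scaled FPKM in the LnCaP lines, 0 and 0.224 in the VCaP lines, and 2.46 and 0.193 in the LAPC4 lines. It had 53 counts in LAPC4 (95% Poisson interval 39.7 to 69.3), 8 in LAPC4-CR (3.45 to 15.8) and 0 in VCaP, where the limit of 3 counts that a count of 0 allows (one-sided) corresponds to 0.184 scaled FPKM; the upper end of the two-sided interval is 3.69 counts. An overlapping entry, C9orf100, had up to 5425% of the count of CA9, so CA9 levels and shares are uncertain. CA12 (ENSG00000074410, chromosome 15, 61400630 to 61461413), also known as an oestrogen target, was at 1.65 and 13.8 scaled FPKM in the LnCaP lines, 17.8 and 14.6 in the VCaP lines, and 0.483 and 3.07 in the LAPC4 lines. It was 8.37-fold higher in LnCaP-abl and 6.35-fold higher in LAPC4-CR, and the VCaP lines, both high, differed little. Of both enzymes CA9 made up 83.6% in LAPC4 (56.99% of their counts, 95% Wilson interval 46.8% to 66.6%) and 5.91% in LAPC4-CR (1.61% of their counts, 95% Wilson interval 0.818% to 3.14%). The 2 thus differed in opposite directions in that pair.

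**Figure D4:**
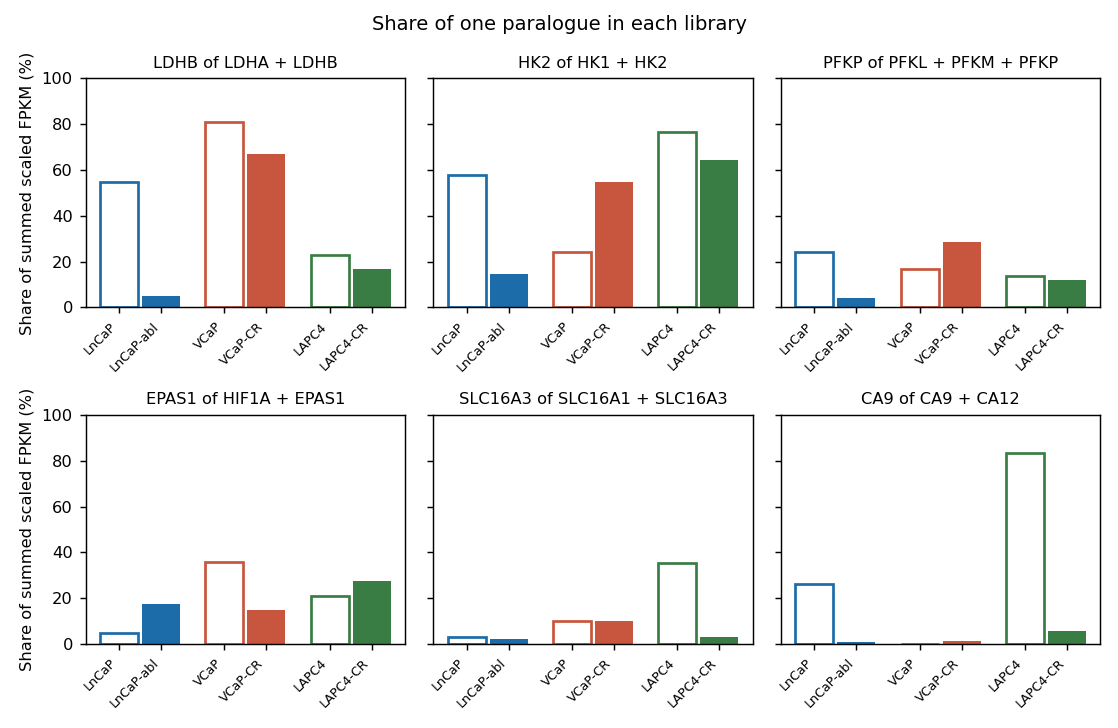
Share (%) of 1 gene in the summed scaled FPKM of its family, for 6 families in the 6 libraries; open bars are parental and filled bars resistant lines. The LDHB share was 4.80% in LnCaP-abl and 81.1% in VCaP, and the CA9 share was 83.6% in LAPC4 and 5.91% in LAPC4-CR.

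Of the other targets, BNIP3L, NDRG1, MXI1 and BHLHE40 separated the lines more than the states, and BNIP3 did not. BNIP3L (ENSG00000104765), a mitophagy receptor, was at 14.6 and 11.2 scaled FPKM in the LnCaP lines, 0.332 and 0.232 in the VCaP lines, and 17.9 and 12.5 in the LAPC4 lines. Both VCaP lines were far below the others, on 14 and 16 counts. Its relative BNIP3 was at 28.5 and 20.4 scaled FPKM in the LnCaP lines, 17.96 and 33.5 in the VCaP lines, and 38.1 and 22.6 in the LAPC4 lines. BNIP3 thus made up 98.2% and 99.3% of the 2 in the VCaP lines and 64.5% to 68.01% in the others. Of their counts it made up 96.4% and 98.6% in the VCaP lines and 47.1% to 51.03% in the others. NDRG1 (ENSG00000104419), induced by hypoxia and by androgen, was at 2.21 and 3.31 scaled FPKM in the LnCaP lines, 78.5 and 71.995 in the VCaP lines, and 14.3 and 8.11 in the LAPC4 lines, with the order of the lines the same in both states. MXI1, an antagonist of MYC, was at 9.19 and 13.9 scaled FPKM in the LnCaP lines, 9.84 and 7.68 in the VCaP lines, and 25.1 and 23.9 in the LAPC4 lines, highest in both LAPC4 lines. BHLHE40 was at 2.48 and 5.05 scaled FPKM in the LnCaP lines, 0.773 and 0.926 in the VCaP lines, and 2.04 and 4.80 in the LAPC4 lines, higher in LnCaP-abl and LAPC4-CR and lowest in the VCaP lines. For 16 of the 37 genes the range between the lines was wider than the largest change within a pair, against 55.2% of all genes tested.

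HIF proteins bind a core motif written ACGTG or GCGTG, so both were searched on both strands in the 250 bases before each start site in RefSeq (GRCh38.p14). For 35 of the 40 genes 65 such windows were found, since many genes have several starts. ACGTG was in 35.4% of these and in 18.5% of all 35116 windows, GCGTG in 36.9% and 32.2%, and either in 60.0% and 43.2%. The windows of the set were also richer in G and C, with a median of 68% against 58%, and the part of base composition was not tested. ACGTG overlaps the E-box CACGTG, which counts on both strands. Shown are the windows of the 3 genes most reduced in LAPC4-CR as plain ratios and, beside them, of LDHB. On the log2(scaled FPKM + 1) scale the change of ALDOC (-1.67) was larger than that of CA9 (-1.54). Capitals mark the motif on either strand. CA9 (chr9:35673678-35673927, + strand) holds ACGTG on the opposite strand, 18 bases before the start. SLC16A3 (chr17:82228792-82229041, + strand) holds ACGTG at 68 and 55 bases before the start; of its other 4 windows, 2 hold GCGTG and none holds ACGTG. ADM (chr11:10304823-10305072, + strand) holds GCGTG at 101 bases before the start. LDHB (chr12:21657843-21658092, - strand) holds neither in this window. A match is a run of letters, not a measured site.
CA9: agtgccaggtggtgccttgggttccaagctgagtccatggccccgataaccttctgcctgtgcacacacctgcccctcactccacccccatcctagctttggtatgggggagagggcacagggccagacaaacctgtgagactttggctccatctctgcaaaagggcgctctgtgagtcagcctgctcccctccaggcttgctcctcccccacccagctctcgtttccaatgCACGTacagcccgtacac
SLC16A3: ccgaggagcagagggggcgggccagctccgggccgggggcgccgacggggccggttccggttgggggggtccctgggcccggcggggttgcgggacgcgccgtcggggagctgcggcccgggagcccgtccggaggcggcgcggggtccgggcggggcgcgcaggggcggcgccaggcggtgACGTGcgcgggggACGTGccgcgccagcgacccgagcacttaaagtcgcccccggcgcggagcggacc
ADM: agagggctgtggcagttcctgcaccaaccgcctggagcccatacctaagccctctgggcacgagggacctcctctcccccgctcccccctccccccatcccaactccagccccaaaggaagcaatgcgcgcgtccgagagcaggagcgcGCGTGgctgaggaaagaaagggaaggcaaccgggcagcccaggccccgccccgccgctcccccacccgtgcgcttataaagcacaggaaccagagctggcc
LDHB: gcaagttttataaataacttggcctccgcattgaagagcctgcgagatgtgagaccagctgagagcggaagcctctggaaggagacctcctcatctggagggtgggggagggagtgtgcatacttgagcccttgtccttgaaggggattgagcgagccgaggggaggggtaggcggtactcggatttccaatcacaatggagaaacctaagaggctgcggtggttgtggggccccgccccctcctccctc

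Other genes of these pathways were taken from a list of 105 names, of which 74 were tested. Of the 38 other hypoxia genes, 12 were 2-fold lower and 1 higher in LAPC4-CR, against 5.28% and 5.22% of all genes tested. In VCaP-CR 0 were lower and 7 higher (against 2.03% and 2.37%), and in LnCaP-abl 2 were lower and 2 higher (against 6.19% and 6.23%). Of the 36 other genes of glycolysis and pyruvate use, 3 were 2-fold lower and 1 higher in LAPC4-CR, 0 lower and 2 higher in VCaP-CR, and 3 lower and 6 higher in LnCaP-abl, to be read against the same shares of all genes. In LAPC4-CR the median change was -0.29 for the hypoxia genes and 0.04 for the others, and in VCaP-CR it was 0.31 and -0.06. Some of these genes reached the level for testing only through 1 library, such as ANGPTL4 and SLC16A7 (LAPC4), PLOD2 (VCaP-CR) and PDK2 (LnCaP). For them a difference in that pair was built into the selection, and the 2-fold counts above include them. None of the 74 passed edgeR's test at an adjusted p of 5%.

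Of the 74 genes, 4 were 2-fold different in the same direction in at least 2 pairs. The share of all genes tested that did so was not counted, so the number 4 has no background to be read against. CITED2, which competes with HIF for its coactivators, was at 7.35 and 26.3 scaled FPKM in the LnCaP lines, 16.9 and 59.9 in the VCaP lines, and 25.5 and 46.4 in the LAPC4 lines. It was higher in the resistant line every time, with a log2 change of 1.52 (SE 0.30, edgeR adjusted p 0.593) and a DESeq2 adjusted p of 0.00597. SLC16A7, a pyruvate and lactate transporter, was at 2.98 and 0.434 scaled FPKM in the LnCaP lines, 0.270 and 0.204 in the VCaP lines, and 4.26 and 0.764 in the LAPC4 lines. Its log2 change was -1.99 (SE 0.53, edgeR adjusted p 0.593), with a DESeq2 adjusted p of 0.0280. SLC16A7 reached the level for testing only through LAPC4, so a difference in the LAPC4 pair was built into its selection. LOX, which cross-links collagen, was at 2.06 and 0.385 scaled FPKM in the LnCaP lines, 1.14 and 1.38 in the VCaP lines, and 3.07 and 0.710 in the LAPC4 lines, lower in LnCaP-abl and LAPC4-CR. PYGL, the glycogen phosphorylase of liver, was at 0.675 and 5.16 scaled FPKM in the LnCaP lines, 0.724 and 2.52 in the VCaP lines, and 1.15 and 1.11 in the LAPC4 lines, higher in LnCaP-abl and VCaP-CR. The pyruvate kinase PKM2, so named in the tables, was at 198 and 224 scaled FPKM in the LnCaP lines, 157 and 191 in the VCaP lines, and 177 and 151 in the LAPC4 lines, with all lines within a narrow range.

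**Figure D5:**
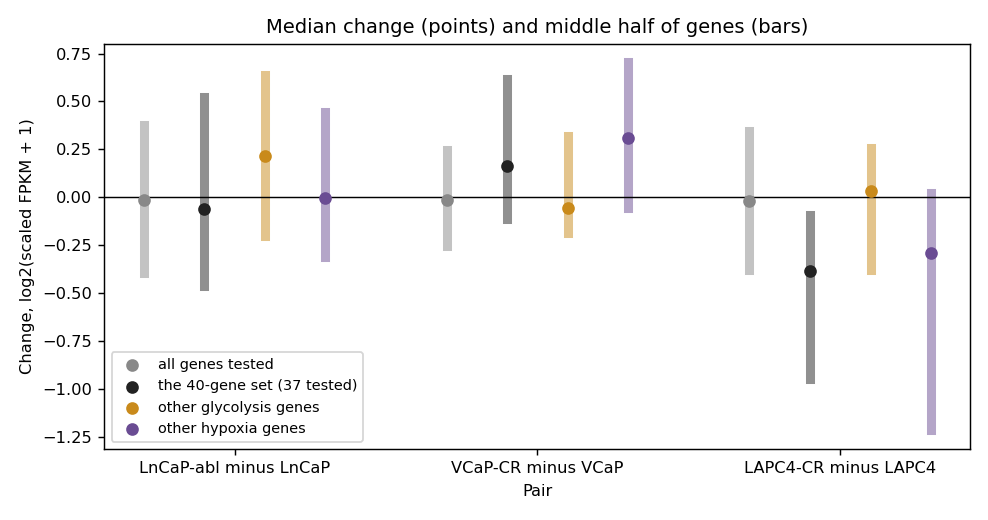
Median change (points) and the range from the lower to the upper quartile of genes (bars), resistant minus parental log2(scaled FPKM + 1), for all genes tested, the set (37 tested) and the other pathway genes in each pair. In the LAPC4 pair the medians of the set (-0.39) and of the other hypoxia genes (-0.29) lie below that of all genes, and in the VCaP pair (0.17 and 0.31) above it.

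How reads matching several places were counted is not stated in the sources used here, and neither is the use of strand. Pseudogenes named after a gene of the set had counts of 31.5% to 36.8% of that gene for TPI1, 22.3% to 29.8% for GAPDH, 22.99% to 27.2% for LDHA, 33.3% to 47.8% for BNIP3, 7.44% to 12.9% for HK2 and 3.001% to 14.8% for LDHB, so these levels are uncertain by such amounts. Another entry with at least 10% of the gene's own count in some library overlaps PFKM, PGAM1, SLC2A3, PDK1, CA9, BNIP3L, EGLN3, ANKRD37, PFKFB3 and BHLHE40, whose values are uncertain for that reason. The overlapping entry had up to 5425% of the gene's count for CA9, 3786% for SLC2A3, 1190% for EGLN3 and 848% for ANKRD37.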

How the data were processed

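Total RNA of 6 cell lines was isolated with RNeasy and turned into SOLiD Total RNA-Seq libraries, per the labels' protocols. HTSeq and hg18 are named in the submitters' processing notes; aligner, annotation release and strand setting are not stated in the sources used here. Per the file headers, the deposited tables hold a count and an FPKM value per gene. Per the file headers, start positions come with each gene; 1 was added because they count from 0. FPKM was rebuilt within 0.0872% from count, length and library total, for entries with at least 10 counts. Small RNA entries (8763) were left out and entries of 1 name summed, leaving 42887 symbols. FPKM was divided by median-ratio factors (0.847 to 1.11) over 11600 genes at 1 or more in all libraries.

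The deposited counts were compared between states with edgeR 4.0.16 (quasi-likelihood, TMM, parental line as block, R 4.3.3), Benjamini-Hochberg adjusted over 16231 genes. DESeq2 1.42.0 and limma 3.58.1 on log2(scaled FPKM + 1) were alternatives. On simulated counts for these 16231 genes, 81 of 100 genes changed 4-fold and 100 of 100 changed 16-fold were found, with 4 false calls. The simulation gave all genes 1 dispersion (0.121) and no difference between parental lines. It changed only genes with many counts, equally in every pair, so it cannot tell what the test misses when pairs differ. In the data KLK3 was not called, with a log2 change of -6.23 (edgeR adjusted p 0.593). Pairing comes from the line names; deviations from the group means correlated at 0.46, 0.73 and 0.59 within the LnCaP, VCaP and LAPC4 pairs. Nothing says that the libraries are separate cultures of their lines, so the spread between cultures of a line was not measured. The p-values of the blocked fits weigh the mean change over the pairs against its variation between them, with estimates of that variation partly shared between genes. They do not themselves measure how far the pairs differed. Poisson and Wilson intervals cover counting error only.

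Values in every library are given for genes 2-fold different in any pair or most abundant in their step, and for some further genes chosen after their values were seen. Other pathway genes are named when 2-fold different in the same direction in at least 2 pairs; PKM2 is added as the main pyruvate kinase. The genes and lists were chosen with earlier results of these data known.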

Additional observations from a re-analysis of the deposited data

Results flagged for a closer look

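For 3 genes the changes in 2 pairs were 2-fold and opposite in direction. With 1 library per line and state, the difference between pairs was not tested. HK2 was lower in LnCaP-abl and higher in VCaP-CR, and its changes differed by -3.14 (LnCaP pair less VCaP pair). ALDOC was higher in VCaP-CR and lower in LAPC4-CR, a difference of 2.67 (VCaP pair less LAPC4 pair). EGLN3 was higher in LnCaP-abl and lower in LAPC4-CR, a difference of 2.39 (LnCaP pair less LAPC4 pair).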

How the results depend on the processing

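Under alternatives 7 of 864 within-pair changes took another sign, and 0 of 155 of those of 2-fold or more. The latter could hardly come out otherwise, so it is no check of these changes. Other pseudocounts, filters and plain ratios of the same values keep the sign, and the rescalings were small beside 2-fold. The median changes of the set moved by less than the SD between the 3 pairs (0.277) in 24 of 24 alternatives. That SD is wider than the LnCaP and VCaP medians themselves, so this is a weak check. The LnCaP median went from -0.06 to -0.15 with the factor over protein-coding genes and to -0.18 with no filter. The LAPC4 median went from -0.39 to -0.23 with a pseudocount of 5. The edgeR direction of all 5 genes at an unadjusted p under 0.1 held in 55 of 55 alternatives, and that of the 37 in all but 49 of 407. The 5 were picked by their p in the main fit, and the alternatives reuse the same libraries. The 55 of 55 could thus hardly come out otherwise and is no check of these 5 genes. Only CA12 passed 5%, without the VCaP pair. Without the replicate block, edgeR called 0 genes higher and 0 lower, as with it, and 0 of the 37 were under an unadjusted p of 0.05, against 2 with the pairing. The alternatives that kept small RNA genes or used plain ratios were chosen after the data were seen.

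Calls over all genes were 83 higher and 55 lower in DESeq2 and 95 and 58 without a filter. With each pair left out in turn they were 0 to 13 and 1 to 20, with 0 to 1 higher genes of the set. The count of the set changed 2-fold the same way in the remaining pairs was then 0 to 1 higher (CA12) and 0 to 1 lower (LDHB). Of 48 share differences within a pair, 10 were of at least 20 points, and 7 when shares were taken from counts.

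Of all genes, 2-fold counts with a pseudocount of 0.25 were 1607 lower (LnCaP), 691 higher and 590 lower (VCaP), and 1300 and 1342 (LAPC4). With a pseudocount of 5 they were 357 and 298, 124 and 81, and 252 and 308. With the filter at 5 they were 524 and 521, 205 and 143, and 488 and 453. As plain ratios they were 1628 and 1937, 845 and 797, and 1528 and 1641. Of the set, a pseudocount of 0.25 gave 5 higher in VCaP-CR. A pseudocount of 5 gave 1 higher and 2 lower (LnCaP), 1 higher (VCaP), and 1 higher and 5 lower (LAPC4). FPKM as deposited gave 5 lower (LAPC4), the filter at 5 gave 1 higher (LnCaP) and 4 lower (LAPC4), and plain ratios gave 5 higher in LnCaP-abl and 5 in VCaP-CR. The causes were not tested. Depth limits genes with few counts, such as CA9, PDK4, SLC2A3, SLC16A3 and ADM outside LAPC4, and BNIP3L in the VCaP lines.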
